A study of Mus musculus with 10 samples.

Results

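Hepatocyte-derived peripheral cholangiocytes (HpC) were compared with hepatocytes (H) of the same genotype. These are 7 of the 10 RNA-seq libraries of the series: the 4 titled HpC1 to HpC4 and the 3 titled H1 to H3, chosen by their titles alone. All 7 came from livers of mice labelled Alb-Cre+/-;Rbpjf/f;Hnf6f/f, on a mixed background of C57BL/6, FVB and CD1. The ages given are P124, P151, P144 and P139 for HpC1 to HpC4 and P134, P139 and P139 for H1 to H3. Cre is driven by the albumin promoter, which is active in hepatocytes and their fetal precursors. It is designed to delete the floxed alleles of Rbpj, through which Notch receptors act on DNA, and of Hnf6 (Onecut1), a transcription factor of bile duct development. The genotype label is the same for both cell types, and the libraries come from mice of several ages. The title of the series speaks of a biliary system formed from hepatocytes, and the comparison asks how far the transcriptome of such duct cells has moved from that of hepatocytes. HpC were sorted by flow cytometry from nonparenchymal cells that had been perfused with collagenase and then digested with collagenase, accutase and trypsin. H were sorted after the perfusion alone, so that the digestion and the cell type cannot be told apart. The surface antigens used for the sort are not given in the sources used here, and a gene used to sort is no finding. The labels do not say whether H2, H3 and HpC4, all of the same age, came from separate animals. If they did not, the p-values hold in part a technical spread and not that of animals. The remaining libraries, 3 of peripheral cholangiocytes (pC) from floxed mice without Cre aged P151, P119 and P142, entered the filter on low values and the fit's estimate of the spread. They are set beside HpC only for the levels of hepatocyte-list genes.

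Hepatocytes are the metabolic cells of the liver. They secrete plasma proteins, make bile acids and urea, store and release glucose and clear drugs, and their identity rests on a network of transcription factors such as HNF4A and C/EBP alpha. Cholangiocytes line the bile ducts, form tight junctions around a lumen, alter bile through ion channels and water channels, and sense flow with a primary cilium. In the fetus both arise from hepatoblasts, and Notch and TGF-beta signals from the portal mesenchyme direct hepatoblasts to the duct fate.

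Values are given as scaled TPM: abundances per transcript with a fixed total, which already take transcript length into account, summed over the transcripts of a gene and rescaled between libraries. Fold changes are differences of log2(scaled TPM + 1), HpC minus H, with the standard error (SE) from limma. A gene is said to have risen or fallen where limma's adjusted p was below 5% over the 14765 genes tested. The rescaling matters: over all genes tested the median log2 change was 0.08, against 0.87 on TPM as deposited, where 83.26% of the called genes were higher in HpC instead of 51.21%. The deposited values hold no read number, so the depth of the libraries is unknown. Between 10232 and 10687 genes reached 1 TPM in the H libraries and between 12495 and 14406 in the HpC libraries. HpC1 and HpC2 stood apart. Pancreatic acinar markers took 24.06% of the TPM of HpC1, and at most 0.03482% in the other HpC libraries. Markers of squamous epithelium took 4.851% of the TPM of HpC2 and at most 0.1216% in the other HpC libraries. In HpC1 there were 40 genes at more than 10 times their level in every other library, and 36 in HpC2. Of these, 5 and 9 were among the genes called higher in HpC.

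The targeted genes were read first. Rbpj read 4.23, 4.09, 4.6 and 6.24 in the HpC libraries and 1.59, 1.26 and 1.196 in the H libraries (scaled TPM), a rise of 1.29 (SE 0.17, adjusted p = 8.05e-05). Onecut1 stood at 37.7, 19.3, 24.9 and 46.3 in HpC and at 109, 87.7 and 46.0 in H. It fell by 1.30 on the log2 scale (SE 0.34, adjusted p = 0.00767), a call that was lost on TPM as deposited (log2 change -0.19, adjusted p = 0.704). The HpC range of Onecut1 just reached that of H, while Rbpj was higher in every HpC library than in any H library. Gene totals count reads from exons outside the deleted part as well, and so do not measure the deletion in either group.

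The cell type labels matched the defining markers. The 8 hepatocyte markers, led by Alb, summed to between 90370 and 105000 scaled TPM in H and to between 3499 and 6979 in HpC. The 7 cholangiocyte markers, led by Spp1, summed to between 1514 and 2523 in HpC and to between 30.77 and 43.02 in H. Neither set overlapped between the groups, and every HpC library nevertheless held hepatocyte transcripts at a level well above 0.

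**Figure D1:**
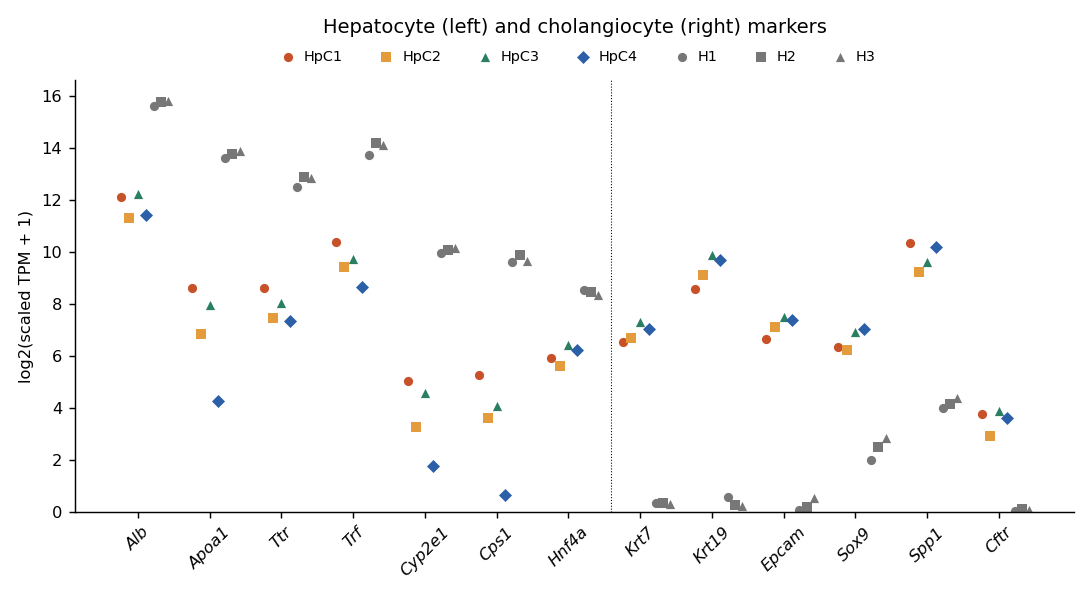
Log2(scaled TPM + 1) of defining hepatocyte markers (left) and cholangiocyte markers (right), 1 point per library, the HpC libraries in colour and the H libraries in grey. Every cholangiocyte marker shown was higher in each HpC library than in any H library, as for Krt19 with 382 or more scaled TPM against 0.471 or less, and each hepatocyte marker shown was lower, as for Alb with 4760 or less against 50110 or more.

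Most of the transcriptome differed between the cell types. Of the 14765 genes tested, 4528 (30.7%) rose and 4314 (29.2%) fell in HpC relative to H. By the stricter test for a change beyond 2-fold, 1659 genes (11.2%) rose and 1737 (11.8%) fell. On TPM as deposited 7553 rose and 1519 fell at 5%. Of the 8842 genes called at 5%, 6039 kept their call and sign there and 5 were called in the other direction. Of the 3396 genes called beyond 2-fold none changed sign, 3124 were still called at 5% and 2415 were still called beyond 2-fold. Counts of list members given below have to be read against these shares.

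Among protein-coding genes of substantial level whose libraries did not overlap, Krt19 and Ccn2 had the largest rises. Krt19 (ENSMUSG00000020911, chr11:100140810-100148665, minus strand, mm10), the keratin that marks bile ducts, had scaled TPM of 382, 545, 941 and 822 in HpC1 to HpC4 against 0.471, 0.1999 and 0.183 in H1 to H3. It rose by 8.96 (SE 0.29, adjusted p = 2.69e-08), from near 0 in all H libraries. Ccn2, a secreted matricellular protein induced by TGF-beta and by YAP, followed with 332, 309, 454 and 432 against 0.567, 0.163 and 0.149, a rise of 8.21 (SE 0.24). Sprr1a, a cornified envelope protein that epithelia also make under stress, rose by 7.73 (SE 0.51). It read 165, 489, 815 and 543 in HpC1 to HpC4 and no more than 1.64 in H, and was thus also high outside HpC2. Igfbp7, a secreted binding protein of insulin-like growth factors, rose by 7.27 (SE 0.17). Ezr, which ties the apical membrane to actin, stood at 289, 560, 516 and 501 in HpC against at most 2.57 in H, a rise of 7.10 (SE 0.24). S100a11 (7.10, SE 0.41), Fosb (6.95, SE 0.29), Tmsb4x (6.93, SE 0.20), Cxcl16 (6.59, SE 0.42) and Ahnak (6.55, SE 0.37) completed the 10 largest. They encode a calcium-binding protein, an AP-1 subunit, an actin-sequestering peptide, a chemokine and a giant scaffold protein.

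The 10 largest falls among such genes included apolipoproteins, a hepcidin and enzymes of bile acid and glucose metabolism. Apoa2 (ENSMUSG00000005681, chr1:171225054-171226379, plus strand), an apolipoprotein of high-density lipoprotein, read 23060, 27410 and 26780 scaled TPM in H1 to H3 and 432, 166, 341 and 15.8 in HpC1 to HpC4. Its fall was -7.49 (SE 1.05, adjusted p = 0.000146). Cyp7a1, the rate-limiting enzyme of bile acid synthesis, read 921, 882 and 674 in H and 14.6, 3.75, 9.50 and 0 in HpC, a change of -7.28 (SE 0.95, adjusted p = 8.53e-05). Pck1, which commits to gluconeogenesis, read 2581, 2881 and 3221 in H and 101, 17.7, 37.0 and 2.63 in HpC, a change of -6.99 (SE 0.99). In all 3 genes HpC4 was the lowest library and HpC1 the highest. Other members of the 10 largest falls were Hamp2 (-8.68), a hepcidin gene, the apolipoprotein gene Apoa4 (-7.95), the serpin gene Serpina3k (-7.45), the hepatokine gene Fgl1 (-7.40), Wfdc21 (-7.17), the fatty acid transporter gene Slc27a2 (-7.09) and Cyp2a4 (-7.03). Hamp2, Serpina3k and Cyp2a4 have near-identical copies, so reads may be shared with those.

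**Figure D2:**
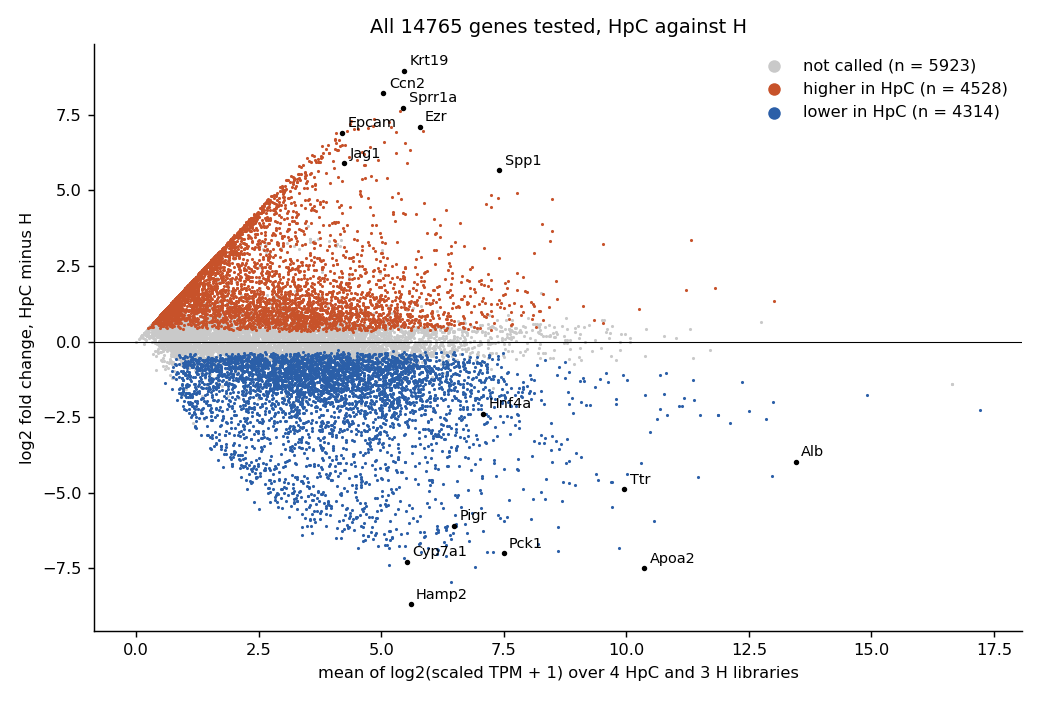
Log2 change, HpC minus H, of the 14765 genes tested against their mean log2(scaled TPM + 1) over the 7 libraries. Genes called at 5% are coloured, 4528 higher (red) and 4314 lower (blue) in HpC, and the genes labelled in black include Krt19 and Ccn2 at the top and Apoa2 at the lower right.

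Every plasma protein gene on the list fell. Each of the 30 tested secreted plasma proteins was lower in HpC, with a median change of -5.42, and all 30 were also lower on TPM as deposited. Alb (ENSMUSG00000029368, chr5:90460897-90476602, plus strand) read 50110, 56240 and 57640 scaled TPM in H and 4445, 2505, 4760 and 2719 in HpC, a change of -3.98 (SE 0.37, adjusted p = 7.40e-06). Apoe, the lipoprotein ligand, changed by -4.46 (SE 0.31). Steeper falls were measured for Kng1, the kininogen gene (-6.97), and for the apolipoprotein genes Apoc3 (-6.94) and Apoa1 (-6.82).

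Bile acid synthesis and hepatocyte transport genes, 17 in number, all fell, with a median of -5.01. Cyp8b1, the enzyme that sets the cholic acid share, read 145, 131 and 114 in H and 2.03, 0.176, 0.460 and 0.119 in HpC, a change of -6.39 (SE 0.35, adjusted p = 2.78e-07). Slc27a5, which conjugates bile acids to coenzyme A (-6.58), and Slco1b2, a basolateral uptake carrier (-5.98), fell as well. All 23 genes of the urea cycle and amino acid breakdown fell, with a median of -5.15. Arg1, the last enzyme of the urea cycle, changed by -6.73 (SE 0.75), Cps1, the first, by -6.32 (SE 0.96), and Hpd and Tdo2, which break down tyrosine and tryptophan, by -6.69 and -6.33.

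Drug metabolism was lower in 26 of 27 genes, with a median of -4.61, led by Cyp3a25 (-6.75). Cyp2c29 (-6.42), Cyp2e1 (-6.39) and Cyp1a2 (-6.13), also cytochrome P450 genes, were among the others that fell. The exception was Gstp1, a glutathione transferase that ducts also express. It read 120, 212, 61.6 and 51.8 in HpC against 89.0, 103 and 102 in H (log2 change -0.04, adjusted p = 0.943), and without HpC1 and HpC2 it was called lower (adjusted p = 0.00433). On TPM as deposited it was called higher (1.08, adjusted p = 0.0223). All 14 genes of glucose and glycogen metabolism fell, with a median of -4.66, among them G6pc (-6.24) and Fbp1 (-5.50), the late enzymes of gluconeogenesis. The 21 genes of fatty acid oxidation and ketogenesis fell too, less far, with a median of -3.38 and extremes such as Fabp1, the liver fatty acid binding protein (-6.93), and Ehhadh, a peroxisomal enzyme (-5.34).

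Energy metabolism followed at a lower size of change. All 13 genes of the mitochondrial genome were lower in scaled TPM, with a median of -2.28, and so were all 24 nuclear genes of the respiratory chain, with a median of -1.78. Sdhb, a subunit of succinate dehydrogenase, read 132, 158 and 152 in H and 35.4, 33.3, 24.5 and 16.5 in HpC. On TPM as deposited 11 of the 24 nuclear genes were called, all lower. The mitochondrial genome took between 22.62% and 26.05% of deposited TPM in H, 5.782% in HpC1 and between 13.31% and 14.42% in the other HpC libraries. In scaled TPM it summed to 86550 in HpC1 and to between 89370 and 116700 in the other HpC libraries.

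Markers of zonation fell on both sides of the lobule. Hepatocytes near the portal vein and near the central vein run different programmes, the former rich in urea synthesis and gluconeogenesis and the latter in drug metabolism. All 16 periportal markers were lower in HpC (median -5.78), as were 12 of 13 pericentral markers (median -4.79). Both lists share many genes with the lists above, so these counts are not a separate result. Cps1, Ass1, Arg1 and Pck1 are such periportal genes, and Glul, Cyp2e1 and Cyp1a2 such pericentral genes. The member that was not called was Ahr, the aryl hydrocarbon receptor, at 27.1, 29.9, 46.4 and 42.5 in HpC against 32.1, 31.2 and 36.2 in H (log2 change 0.10, adjusted p = 0.678). Without HpC1 and HpC2 Ahr was called higher (0.41, adjusted p = 0.0327) and 11 of the 13 lower, and on TPM as deposited Ahr was called higher too (1.20, adjusted p = 0.021).

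**Figure D3:**
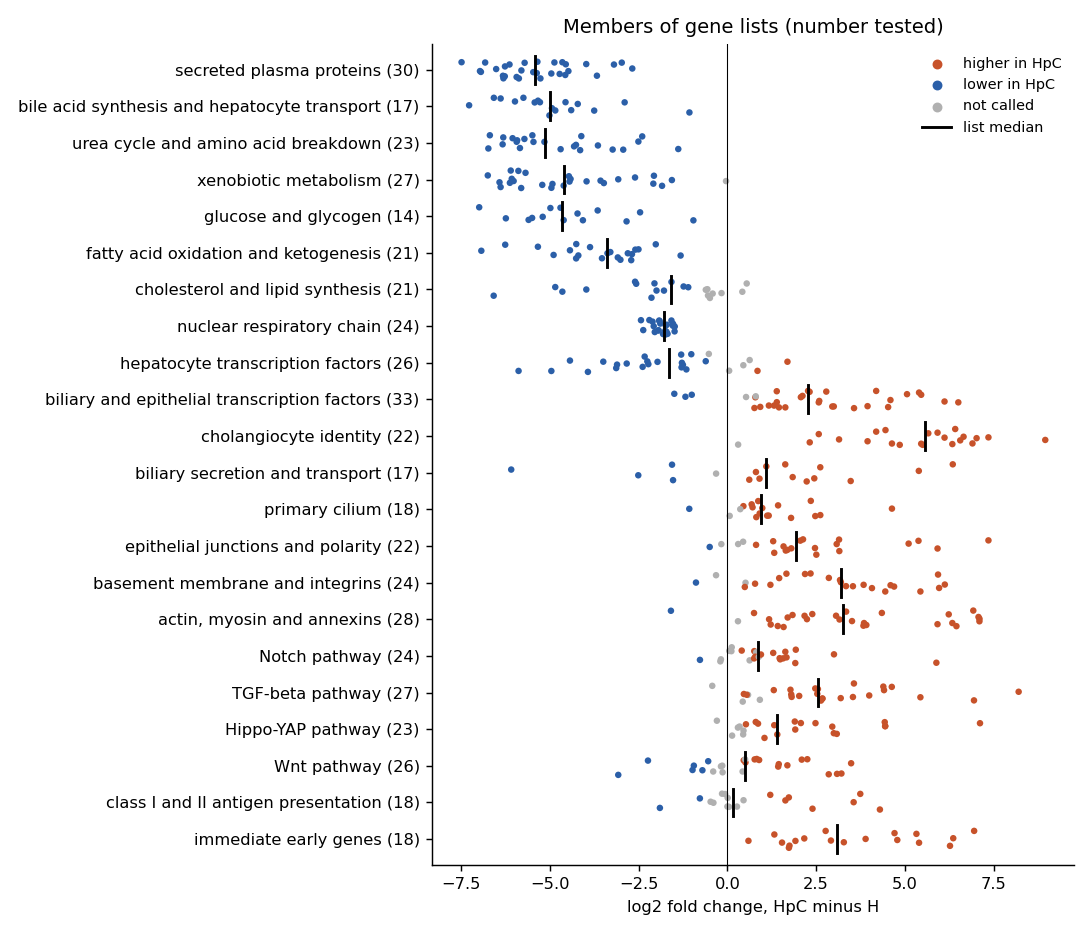
Log2 change, HpC minus H, of each tested member of the gene lists, 1 row of points per list; red points were called higher, blue points lower and grey points were not called, and the bar is the list median. Hepatocyte function lists lie to the left, from a median of -5.42 for secreted plasma proteins, and duct identity lies to the right at 5.58.

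HpC kept measurable hepatocyte RNA, and how much differed between libraries. For the 174 tested hepatocyte-list genes with a mean of at least 10 scaled TPM in H, each HpC library was expressed as a percentage of that mean. The median gene stood at 6.39%, 3.16%, 3.78% and 2.36% of the hepatocyte level in HpC1 to HpC4, or at 8.06%, 6.96%, 10.4% and 7.27% on TPM as deposited. HpC4 was the lowest of the HpC libraries for 110 of the 174 genes and HpC1 the highest for 115. Below 1% of the hepatocyte level lay 68 genes in HpC4 and 1, 27 and 4 in HpC1, HpC2 and HpC3. The same median was 3.09%, 3.19% and 1.58% in pC1 to pC3, within the span of the HpC libraries except for pC3.

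The share kept was far from even between the genes of a library, also outside HpC1 and HpC2. In HpC4 the quartiles of the 174 genes were 0.304% and 14.1%. C3, the central complement protein, kept 19.6%, 10.9%, 17.8% and 15.4% of its hepatocyte level in HpC1 to HpC4, and Ambp, the precursor of bikunin, 14.2%, 10.01%, 16.1% and 11.3%. In pC1 to pC3 Ambp stood at 27.62%, 25.65% and 21.56%, above every HpC library, and C3 at 4.932%, 5.493% and 9.891%, below every HpC library. A share kept is thus a level relative to H and does not tell its origin. Alb kept 8.13%, 4.58%, 8.71% and 4.97%. Apoa2 in contrast kept 1.68%, 0.646%, 1.32% and 0.0614%, so that HpC1 exceeded HpC4 27.3-fold, and Apoa1 kept 2.83%, 0.819%, 1.803% and 0.134%. Alb, C3 and Ambp thus stayed at similar shares in all 4 libraries while both apolipoproteins varied by more than 10-fold. By function the medians in HpC1 to HpC4 were 4.17%, 1.26%, 1.65% and 0.240% for periportal markers, 4.70%, 1.62%, 2.64% and 0.788% for secreted proteins, and 8.90%, 10.01%, 8.71% and 7.04% for fatty acid oxidation. The order of the libraries held for the first and the second of these groups, and the last stayed between 7.04% and 10.01%. In bulk RNA fewer cells of a type and less RNA per cell cannot be told apart, and the share of whole hepatocytes among the sorted cells was not tested.

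**Figure D4:**
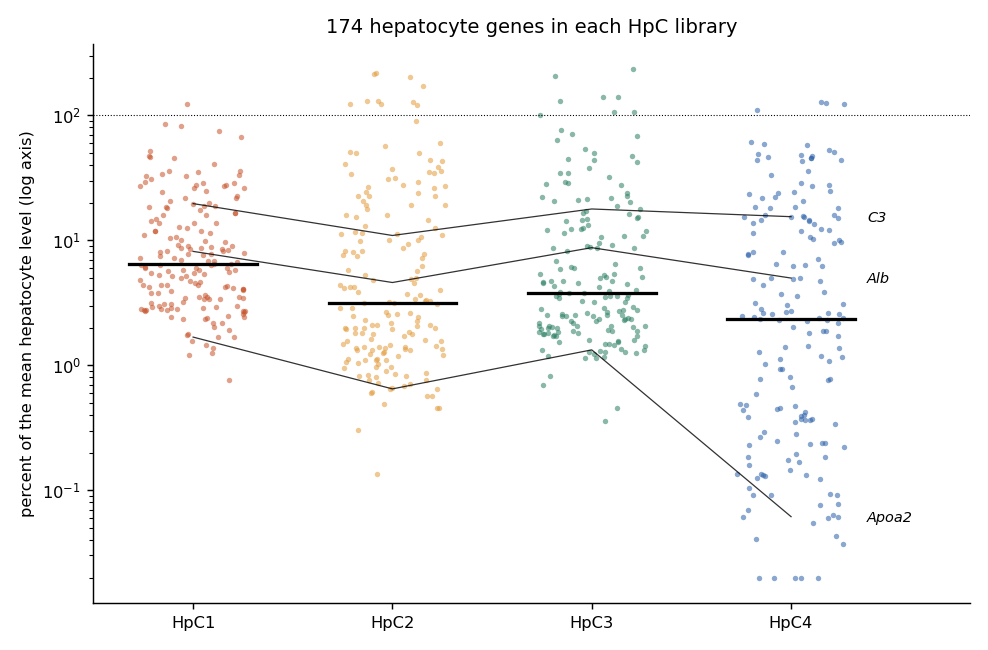
Percentage of the mean hepatocyte level (log axis) that each HpC library kept, 1 point per gene for the 174 hepatocyte-list genes; values listed at 0 are drawn in a row at the bottom, the black bar is the median and the dotted line marks 100%. Lines follow Alb and C3, which stay within a narrow band, and Apoa2, which drops to 0.0614% in HpC4.

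Cholesterol synthesis was the hepatocyte list with the smallest loss. Of 21 genes of cholesterol and lipid synthesis 13 fell and none rose (median -1.58), and on TPM as deposited 7 fell and 1 rose. The genes kept a median of 18.5%, 50.2%, 41.9% and 28.6% of the hepatocyte level in HpC1 to HpC4. Among the largest falls were those of Scd1 (-6.58), the fatty acid desaturase, and of Mttp (-4.85) and Apob (-4.65), which build lipoproteins for export. Cyp51 (0.42, adjusted p = 0.515), which removes a methyl group from lanosterol, and Idi1 (-0.49, adjusted p = 0.447), which isomerises the isoprenoid building block, were not called. HpC1 held the lowest value of the 7 libraries in both genes.

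Iron and heme genes were mostly lower. Of 17 genes 13 fell and 2 rose, or 9 and 3 on TPM as deposited. Hpx, the heme scavenger (-5.88), Hamp, the hormone hepcidin (-5.82), and Tfr2, the hepatocyte iron sensor (-5.39), fell. Bmp6, the ligand that induces hepcidin in hepatocytes and that liver endothelium makes, read 13.03, 11.4, 21.7 and 19.3 in HpC and at most 0.148 in H, a rise of 4.01 (SE 0.24, adjusted p = 3.74e-07).

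Duct identity genes rose as a block. Of 22 tested, 21 rose and none fell, with a median of 5.58, and all 22 rose without HpC1 and HpC2. Krt7, the keratin partner of Krt19, read 92.3, 103, 157 and 128 scaled TPM in HpC and at most 0.272 in H, a rise of 6.56 (SE 0.21, adjusted p = 2.69e-08). Epcam, an epithelial adhesion molecule, read 101, 136, 179 and 166 against at most 0.433, a rise of 6.91 (SE 0.21). Sox9, the duct transcription factor that also marks some periportal hepatocytes, read 79.8, 74.3, 121 and 131 against 2.95, 4.72 and 6.13, a rise of 4.19 (SE 0.29, adjusted p = 1.04e-06). Spp1, the secreted phosphoprotein osteopontin, read 1289, 593, 773 and 1156 against 14.9, 16.6 and 19.9, a rise of 5.66 (SE 0.26). The H libraries thus held Krt7 and Epcam near 0 and Sox9 and Spp1 at a low level. Cldn4, a duct claudin (7.36, SE 0.42), and Cd24a, a surface glycoprotein (7.02, SE 0.16), were among the 4 largest rises. Cldn3, a claudin of both cell types, was the member not called, at 72.4, 64.6, 103 and 91.8 in HpC and 67.9, 69.9 and 60.3 in H (adjusted p = 0.173).

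Genes of duct secretion did not all move one way relative to H. A fall relative to H does not measure a level against that of ordinary ducts. Of 17 genes for biliary secretion and transport 12 rose and 4 fell, or 12 and 2 on TPM as deposited. The chloride channels rose: Ano1 by 6.35 (SE 0.20), and Cftr by 3.47 (SE 0.31) at 12.8, 6.51, 13.9 and 11.3 against at most 0.0946. Muc1, a membrane mucin (5.39), and Slc5a1, the sodium-glucose carrier (2.62), rose as well. Sctr, the receptor through which secretin drives ductal bicarbonate output, was called higher but low, at 0.768, 0.359, 1.003 and 0.932 in HpC and listed at 0 in every H library. Pigr, which carries immunoglobulin A into bile in rodent hepatocytes and in ducts, went the other way at 44.1, 12.0, 16.0 and 3.69 in HpC against 897, 984 and 1137 in H, a change of -6.09 (SE 0.60, adjusted p = 1.18e-05). The basolateral bile acid exporter gene Abcc3 (-2.51) and the bicarbonate transporter gene Slc4a4 (-1.56, lost on TPM as deposited with adjusted p = 0.33) also fell. Slc10a2, the apical bile acid carrier of ducts, did not pass the test, at 11.9, 10.9, 14.2 and 14.6 in HpC and 19.8, 17.6 and 12.2 in H (adjusted p = 0.176).

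Cilium and junction genes rose in the majority. Of 18 cilium genes 15 rose and 1 fell (median 0.95). Pkhd1, the fibrocystin gene mutated in recessive polycystic disease, read 59.4, 41.0, 73.5 and 112 in HpC and 1.502, 1.799 and 1.92 in H, a rise of 4.64 (SE 0.28). Kif3a, a motor of ciliary transport, rose by 2.62 and Pkd2, a ciliary calcium channel, by 2.35. Of 22 genes for junctions and polarity 18 rose and 1 fell (median 1.93), led by Cldn4, Cldn7 (5.92) and the connexin gene Gja1 (5.38), which reached 276 in HpC2 and lay between 16.7 and 29.7 in the other HpC libraries. All 9 simple keratins and intermediate filaments rose, including Krt8 (3.65) and Krt18 (3.31), the pair that hepatocytes also express, at 730 to 1463 and 702 to 1252 scaled TPM in HpC.

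Several liver enzymes and transporters have a sister form used by other tissues, and a ratio of the sister to the liver form within one library hardly depends on the scaling between libraries. Of 20 such pairs, 12 had the liver form called lower and the other form called higher. The log2 ratio was higher in every HpC library than in any H library in 19 pairs. Single genes did so in 31.5% of cases upward and 28.9% downward. That share is no background for a ratio, which moves when either gene of the pair does. The pairs were chosen with earlier results of these data known, so the count is a description and no test. In 9 pairs the leading form switched in every library. For pyruvate kinase, the last step of glycolysis, the liver form Pklr (chr3:89136142-89146784) read 195, 162 and 164 in H and 17.9, 6.46, 16.4 and 13.9 in HpC. The other form Pkm (chr9:59656368-59679375) read 0.293, 0.838 and 0.460 in H and 24.9, 118.7, 24.4 and 22.2 in HpC. The log2 ratio moved from between -7.25 and -6.47 to between 0.45 and 4.01, with HpC2 far above the other HpC libraries. Without HpC1 and HpC2 the mean ratio still differed by 7.44 instead of 8.26.

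Other pairs moved alike. The log2 ratio differed by 10.54 for the claudins, from Cldn1 to Cldn4, and by 6.81 for the aquaporins, from Aqp9, a glycerol channel, to the water channel Aqp1. These sizes depend on the pseudocount: with 0.1 in place of 1 they were 12.7 and 8.91, and 12 of the 20 pairs moved by more than the larger SD of the 2 groups. Other switches in every library included Cdh2 to Cdh1 (5.0), the cadherins of hepatocytes and of most epithelia, and Slc10a1 to Slc10a2 (5.43), where the liver carrier fell and the duct carrier was not called. The syndecans overlapped: the log2 ratio of Sdc1 to Sdc4 lay between -3.42 and -0.68 in HpC and between -1.36 and -0.90 in H, with HpC2 the highest.

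**Figure D5:**
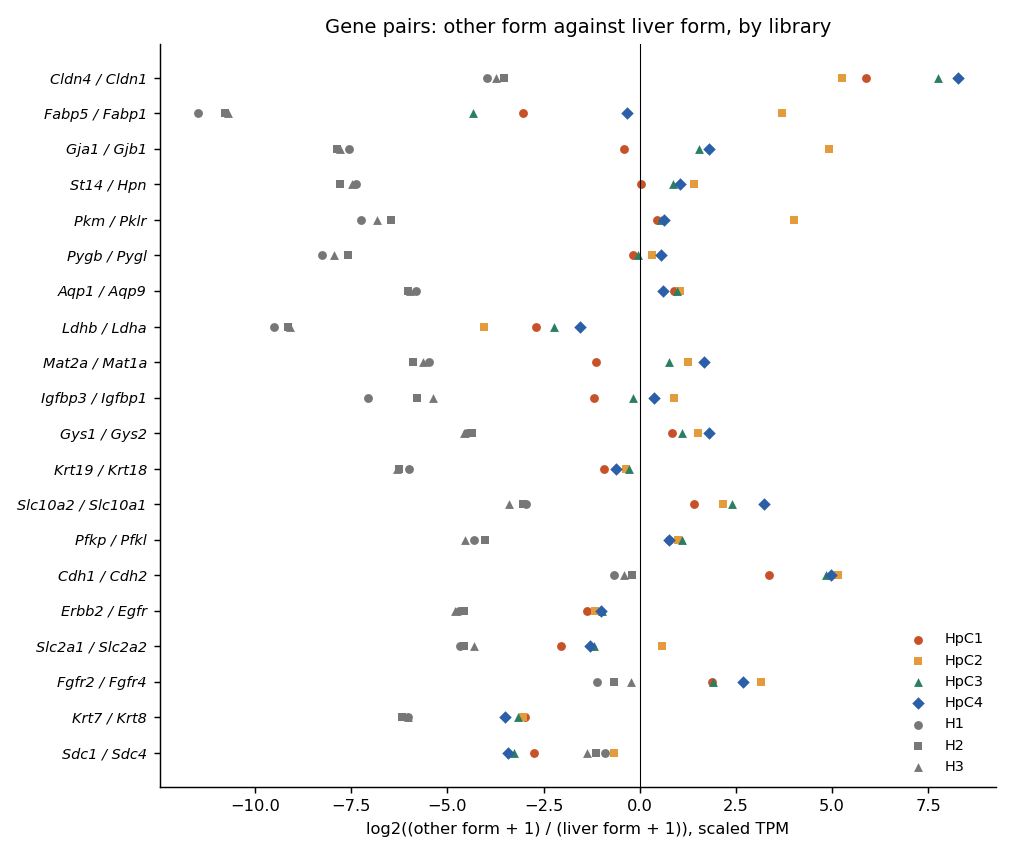
Log2 ratio of the other form to the liver form, log2((other + 1) / (liver + 1)) of scaled TPM, for 20 pairs, 1 point per library, HpC and H in different colours. Points right of 0 mean that the other form led; HpC and H are apart in 19 pairs and overlap for the syndecans, and the HpC2 point for pyruvate kinase lies at 4.01.

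Of 26 hepatocyte transcription factor genes 20 fell and 2 rose, or 13 and 5 on TPM as deposited. Their median change of -1.64 was smaller than that of the secreted, bile acid, urea cycle and drug metabolism lists. Hnf4a (chr2:163506808-163572910), the nuclear receptor at the centre of hepatocyte identity, read 366, 350 and 321 in H and 59.4, 47.9, 85.1 and 74.3 in HpC, a change of -2.39 (SE 0.21, adjusted p = 4.79e-06). All HpC libraries were below all H libraries, yet it was read in every HpC library. The metabolic regulators fell further, namely the xenobiotic receptor gene Nr1i3 (-5.88), Creb3l3 (-4.96), the fatty acid receptor gene Ppara (-4.44) and the stress factor gene Atf5 (-3.93). Foxa1, a pioneer factor shared by both lineages, rose by 1.69 (SE 0.24), as did Zhx2 (0.85), a repressor of fetal liver genes.

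Biliary and epithelial factors rose in 28 of 33 cases and fell in 3 (median 2.27). Klf5 (6.51), Ehf (6.12), Sox4 (5.46) and Klf6 (5.4) led. Klf6 is also on the list of immediate early genes below, for which cell type and digestion cannot be told apart. Klf5 read 39.3, 291, 92.5 and 104 in HpC and at most 0.410 in H, and Ehf read 69.6, 167, 127 and 154 against at most 0.878. Nr2f6 (-1.18) and Esrrg (-1.50), the nuclear receptor genes among those that fell, lost their call on TPM as deposited.

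Promoters were searched for motifs of HNF4A and of other factors described here. The windows were the 250 bases before and 50 bases after each gene's start, from RefSeq on GRCm38.p6, for 10082 tested genes, searched on both strands. Of these, 1269 belonged to genes lower and 1215 to genes higher beyond 2-fold. The HNF4A motif CAAAGTCCA was in 0.486% of all, 1.58% of the lower (20 promoters) and 0.0823% of the higher (1 promoter). Of the other motifs, that of C/EBP, TTGCNCAA where N is any base, was in 2.57%, 4.33% and 2.47%, that of AP-1, TGANTCA, in 4.999%, 6.62% and 6.09%, that of TEAD, ACATTCC, in 2.83%, 4.02% and 3.29%, and that of RBPJ, GTGGGAA, in 6.30%, 5.99% and 7.33% of all, lower and higher promoters. The GRHL motif AACNGGTT was in 1.89%, 2.21% and 2.06%, and the palindromic SMAD motif GTCTAGAC in 0.228%, 0.158% and 0%. A match is a description of letters and no evidence of binding.

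The stretches below show the HNF4A matches, in capitals, in promoters of list genes called beyond 2-fold, 5′ to 3′ on the gene's strand and wholly upstream of the start. They are shown because HNF4A is the factor at the centre of hepatocyte identity and its gene fell. The matches lie 109 to 101 bases before the start of Cyp3a11, a drug-metabolising enzyme gene (chr5:145879920-145879998, minus strand), and 67 to 59 bases before that of Cyp8b1 (chr9:121916329-121916407, minus strand).
Cyp3a11, HNF4A: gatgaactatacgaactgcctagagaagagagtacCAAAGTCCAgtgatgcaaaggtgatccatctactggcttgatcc
Cyp8b1, HNF4A: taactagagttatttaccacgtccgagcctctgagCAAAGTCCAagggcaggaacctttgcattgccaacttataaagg
Cyp3a11 and Cyp8b1 fell by 6.10 and 6.39 on the log2 scale.

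The TGF-beta pathway, named in the title of the series, rose in 23 of 27 genes and fell in none (median 2.55). Of the ligands, Tgfb2 read 16.5, 14.8, 31.6 and 23.9 scaled TPM in HpC and at most 0.0604 in H, a rise of 4.39 (SE 0.37, adjusted p = 4.05e-06), and Tgfb1 read 5.20, 5.28, 9.93 and 4.28 against at most 0.276, a rise of 2.64 (SE 0.26). Among proteins that act on the latent ligand, Thbs1, thrombospondin, rose by 6.95 (SE 0.45) and Itgb6, the chain of an epithelial integrin that frees active ligand, by 5.44 (SE 0.29), whereas Ltbp1, which stores the latent ligand, was not called (-0.43, adjusted p = 0.35). Itgb6 read 32.4, 38.2, 67.4 and 49.1 in HpC and at most 0.137 in H. Of the receptors Tgfbr2 rose (2.02, SE 0.33) and Tgfbr1 was not called (0.58, adjusted p = 0.10). Of the transducers Smad3 rose (1.81, SE 0.28) and Smad2 was not called (0.43, adjusted p = 0.174). All members named as called were also called without HpC1 and HpC2.

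Among BMP and activin genes 10 of 19 rose and 2 fell (median 0.80), or 16 and 2 on TPM as deposited. Bmp6, described with iron above, led the rises. Id1, a target of BMP signals, rose by 2.32 (SE 0.33), while its relatives Id2 and Id3 were not called. The 2 that fell, Inhbc (-5.26) and Inhbe (-4.47), encode activin chains that hepatocytes make.

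Hippo-YAP genes rose in 17 of 23 cases and none fell (median 1.41). Ankrd1, a target gene of YAP, had the largest rise of the list. It read 183, 171, 245 and 399 in HpC against 0.626, 0.557 and 0.946 in H, a rise of 7.12 (SE 0.34, adjusted p = 1.23e-07), and Ccn1, another target, read 380, 414, 719 and 907 against 33.6, 16.8 and 28.3, a rise of 4.43 (SE 0.36). Yap1 itself, the transcriptional activator, was not called at 51.6, 54.7, 55.5 and 61.1 against 52.5, 40.3 and 39.3 (log2 change 0.34, SE 0.15, adjusted p = 0.0752), while its relative Wwtr1 rose by 1.32 (SE 0.25). Amotl1, a junction protein that binds YAP, rose by 4.45. On TPM as deposited 22 of the 23 were called higher, Yap1 among them (adjusted p = 0.00355).

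Notch genes, of interest because the effector Rbpj was targeted in both cell types, rose in 15 of 24 cases and fell in 1 (median 0.85), or 22 and 0 on TPM as deposited. Jag1, a ligand of duct development, read 78.6, 103, 126 and 130 in HpC and 0.800, 1.18 and 0.569 in H, a rise of 5.89 (SE 0.24, adjusted p = 6.30e-08). The coactivator gene Maml2 rose by 3.00 (SE 0.23), and the modifying enzyme gene Lfng by 1.91 (SE 0.30). Of the receptors Notch2 rose by 0.76 (SE 0.15), and Notch1 was not called (0.63, adjusted p = 0.153). Hes1, a target gene that other pathways also induce, read 61.1, 54.2, 61.2 and 73.3 in HpC and 24.9, 13.7 and 21.2 in H, a rise of 1.63 (SE 0.31, adjusted p = 0.00114).

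Wnt genes were mixed, with 14 of 26 higher and 6 lower (median 0.50), or 18 and 2 on TPM as deposited. The ligand genes Wnt10a and Wnt7b were listed at 0 in every H library and read 6.84 to 15.7 and 5.12 to 11.1 scaled TPM in HpC, and Wnt4 rose by 2.85 (SE 0.33). Axin2, the feedback target of beta-catenin, went down from 10.9, 11.7 and 13.1 in H to 1.98, 2.13, 1.26 and 1.64 in HpC (-2.24, SE 0.18, adjusted p = 2.66e-06). Notum, a Wnt deacylase and pericentral target, changed by -3.08 (SE 0.22). These 3 ligand genes and these 2 target genes moved in opposite directions. Some other members did not follow the 2 targets: Znrf3 rose, Rnf43 and Tcf7 were not called, and Lgr5 was below the filter.

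Of 27 receptor tyrosine kinases, cytokine receptors and ligands 16 rose and 7 fell (median 1.66), or 20 and 4 on TPM as deposited. Hbegf, a ligand of the EGF receptor (5.84, SE 0.29), Pdgfb, a mitogen for mesenchymal cells (4.58, SE 0.39), and the receptor genes Axl (4.44) and Fgfr1 (4.21) rose. Genes of the endocrine side of the hepatocyte fell, namely the prolactin receptor gene Prlr (-6.45), the growth hormone receptor gene Ghr (-4.12), and Igf1 (-4.0), the hormone it induces. Igf1 read 2379, 2252 and 1770 in H and 238, 70.1, 136 and 130 in HpC.

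The cytoskeleton and the basement membrane rose broadly. Of 28 genes for actin, myosin and annexins 26 rose and 1 fell (median 3.25), with Tmsb10 (7.08) beside Ezr, S100a11 and Tmsb4x. The gene that fell was Rdx, which encodes radixin, the relative of ezrin that tethers the canalicular membrane of hepatocytes. It read 142.1, 173 and 147 in H and 53.5, 53.5, 47.3 and 47.1 in HpC (-1.59, SE 0.13, adjusted p = 3.33e-06), a call lost on TPM as deposited (adjusted p = 0.183). Of 24 genes of basement membrane and integrins 21 rose and 1 fell (median 3.19). The laminin chain genes Lama5 (6.13, SE 0.23) and Lamb1 (5.93, SE 0.24) and the hemidesmosome integrin gene Itgb4 (5.96, SE 0.21) led, each at 45.4 or more in every HpC library and at 0.554 or less in every H library.

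Genes of mesenchymal transition did not move as one. Of 9 tested 5 rose and 2 fell. S100a6, a calcium-binding protein (5.92, SE 0.34), Vim, the intermediate filament vimentin (5.75, SE 0.29), and the repressor gene Zeb2 (1.63, SE 0.30) rose. Vim read 137, 64.8, 93.0 and 76.5 in HpC and 1.53, 0.375 and 0.355 in H. Fn1, fibronectin, which hepatocytes also secrete into plasma, fell (-2.85, SE 0.38), as did Cdh2 (-1.86, SE 0.29). Snai2 (-1.47, adjusted p = 0.0787) was not called with all libraries and was called lower without HpC1 and HpC2 (adjusted p = 9.35e-06), HpC2 being high at 13.3 against at most 1.23 in the other HpC libraries.

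Genes of the immune response moved in both directions. Of 24 chemokines and cytokines 14 rose and 5 fell (median 2.36). Ccl2, which attracts monocytes, rose by 6.10 (SE 0.77), Cxcl2, which attracts neutrophils, by 5.60 (SE 0.57), and Lif, a cytokine of the interleukin 6 family, by 5.15 (SE 0.48). HpC3 was the highest library for all 3, for Cxcl2 with 155 against 34.5, 32.2 and 59.3 in HpC1, HpC2 and HpC4. The chemokine genes Cxcl9 (-2.08) and Cxcl12 (-2.28) fell, as did the acute-phase gene Saa1 (-6.10, SE 0.55) and its relatives Saa2 and Saa3. Lcn2, also an acute-phase gene, was not called (0.48, adjusted p = 0.443), and on TPM as deposited it was called higher (adjusted p = 0.0148). Of 18 antigen presentation genes 7 rose and 2 fell (median 0.16), or 11 and 0 on TPM as deposited. The class II chaperone gene Cd74 read 150, 110, 184 and 106 in HpC and 5.39, 6.24 and 6.01 in H (4.30, SE 0.34), and H2-Ab1 rose by 3.74 (SE 0.42). B2m, the class I light chain, fell by 1.90 on the log2 scale, a call lost on TPM as deposited (adjusted p = 0.0591).

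All 18 immediate early genes rose (median 3.10), and 17 did without HpC1 and HpC2. Fos, an AP-1 subunit, read 1058, 795, 824 and 1337 scaled TPM in HpC and 115, 34.7 and 68.8 in H (3.89, SE 0.37, adjusted p = 8.70e-06), and Ier3 (6.36), Nr4a1 (6.27) and Fosb led. Genes of this kind are known to respond to cell isolation, and since only HpC went through the longer digestion, cell type and digestion cannot be told apart for them. Of 18 chaperone and unfolded protein response genes 5 rose and 7 fell (median -0.51), or 8 and 1 on TPM as deposited. Hspb1, a small heat shock protein, rose by 5.84 (SE 0.42) with 365 in HpC2 and 101 to 112 in the other HpC libraries. The endoplasmic reticulum genes Herpud1 (-2.40) and Pdia4 (-1.87) fell, the second of these not on TPM as deposited (adjusted p = 0.0729).

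Cell cycle genes rose in 13 of 17 cases and fell in 1 (median 1.41), or 11 and 1 without HpC1 and HpC2 (median 0.94). Those that rose include the inhibitor genes Cdkn1a, Cdkn1b and Cdkn2b, and the cyclin genes Ccnb1, Ccnb2 and Ccnd1 were not called. Ccnd2, a cyclin of G1, read 27.2, 22.8, 32.1 and 22.7 in HpC and at most 0.145 in H (4.63, SE 0.27). Mki67, which marks cycling cells, read 2.76, 30.3, 2.81 and 1.34 in HpC and at most 0.164 in H (2.34, adjusted p = 0.0215), a call lost without any 1 of the 3 H libraries (adjusted p up to 0.0558). HpC2 was the highest library by far. Of 11 listed hepatoblast and fetal liver genes only 6 were tested. Afp, Dlk1, Igf2 and Igf2bp3, markers of fetal liver, were below the filter on low values, and H19 was not matched by symbol. Of the 6 tested 5 rose and none fell, among them Gpc3, a glypican of fetal liver (4.04, SE 0.28), Peg3, an imprinted gene (2.78), and Cdh1 (3.15), which epithelia express in general.

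Markers of other cells moved with these results and are given for that reason. All 13 tested stellate cell and fibroblast markers rose, and their 15 listed genes summed to between 53.95 and 154.4 scaled TPM in HpC and between 3.368 and 4.684 in H. Of 10 tested markers of Kupffer cells and macrophages 7 rose and none fell: Cd14, Csf1r, Cd68, Lyz2, C1qb, C1qc and Clec4f. The call of Clec4f was lost without HpC3, H2 or H3 (adjusted p up to 0.0893), and without HpC1 and HpC2 6 of the 10 were called higher. The 13 listed markers of Kupffer cells and macrophages summed to between 95.1 and 236.8 in HpC and between 2.466 and 5.254 in H. That sum was mostly Cd14 (63.7, 93.5, 188 and 102) and Csf1r (14.2, 9.63, 17.7 and 24.9), and Adgre1, Marco and Timd4 stayed under 1 in every HpC library. Of 11 tested endothelial markers 8 rose and none fell (median 0.91). The 13 listed summed to between 15.49 and 35.14 in HpC and between 5.267 and 8.585 in H, with Lyve1 and Emcn under 1 in every HpC library. Lymphocyte markers overlapped, at 1.984 to 51.37 in HpC and 4.386 to 19.27 in H. The 9 mesothelial markers without Krt19 summed to between 44.19 and 78.95 in HpC and to at most 1.43 in H. Erythroid markers summed to between 36.59 and 377.1 in HpC and between 9.248 and 22.73 in H. Of 5 tested 4 rose, all of them globin genes, and 1 fell. The part of these cells in the rises of matrix, chemokine and class II genes was not tested.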

How the data were processed

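The authors deposited a TPM value per Ensembl transcript and library (85276 transcripts), made with kallisto on mm10, with DESeq also named without a role, per the submitters' processing notes; versions are not given in the sources used here. Libraries came from a low-input kit and single-end reads of 50 bases, per the labels. Deposited TPM sums to the same total in each library and holds no depth, so no counting error or count test was possible. TPM was summed per gene through GENCODE M21 (81927 transcripts matched) and rescaled by an unweighted trimmed mean of log ratios, leaving out 30% of log ratios and 5% of mean levels at each end (factors 0.499 to 0.585 in H, 0.668 to 1.61 in HpC). Genes that reached 1 TPM in 3 or more of the 10 libraries were compared on log2(scaled TPM + 1) with limma 3.58.1 (R 4.3.3, mean-dependent prior variance, groups as coefficients) with p-values adjusted by Benjamini and Hochberg over 14765 genes at 5%, and with limma's treat beyond 2-fold. The fit was tested on simulated data. Tables and figures used Python 3.11.15, pandas 2.3.3, numpy 2.4.6 and matplotlib 3.10.9.

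The comparison, the 43 gene lists (789 genes, 713 tested) and the 20 pairs were chosen with earlier results of these data known. Some genes are on several lists, so the counts of different lists are not independent. Named were the 10 largest rises and falls among protein-coding genes with non-overlapping groups and a mean log2 value of at least 5, up to 4 rises, 4 falls and 4 exceptions per list, both genes of a pair, the targeted genes, the most abundant genes and 8 defining markers. Ambp, C1qb, C1qc, C3, Clec4f, Cxcl9, Fos, Notch2, Sctr, Smad3, Tgfb1, Tgfb2, Tgfbr2 and Wwtr1 fall outside this rule and were chosen after their values were seen, as was Cyp3a11 for its promoter. Some list members are not reported here. Same-numbered libraries did not deviate together (correlations -0.0458, 0.0839 and -0.0244), so no pairing was used. Alternatives were TPM as deposited, other scalings, filters and pseudocounts, array weights, the 7 libraries alone and leaving out libraries.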

Additional observations from a re-analysis of the deposited data

Results flagged for a closer look

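Among 122 groups of 4 HpC values examined, 12 held a library whose gap to the nearest other, as a share of the whole range, passed Dixon's critical value. Chance passes it in about 1 group in 20, but that rate does not hold for groups chosen with these values known. Krt13 was named for its high mean in HpC, which HpC2 set. The lists, those of acinar and squamous markers included, were chosen with earlier results of these data known. HpC2 was far above the other HpC libraries in scaled TPM of Krt13, a keratin of squamous epithelium (31990 against 1.102 to 2.11), Fabp5, a fatty acid binding protein (468.9 against 5.926 to 9.821), Sdc1, a syndecan (205.4 against 30.36 to 37.12), Pkm (118.7 against 22.15 to 24.85) and Gm20594 (23490 against 16190 to 17170). HpC2 was also highest in the share of TPM held by squamous markers (4.851% against 0.01285% to 0.1216%) and by neutrophil markers (0.002274% against 0.0002767% to 0.0004476%). The 10 neutrophil markers summed to only 19.74 scaled TPM in HpC2. Of these 7 stayed under 1 in every HpC library, and only Cxcr2 passed the filter. Whether HpC2 held neutrophils was not tested. HpC1 was highest in pancreatic acinar markers (24.06% against 0.002351% to 0.03482%). It was lowest in scaled TPM of Ezr (289.2 against 501.2 to 560.0) and in the shares held by genes of epithelial junctions (0.1125% against 0.376% to 0.4195%), of actin, myosin and annexins (0.7455% against 2.498% to 2.603%) and of the mitochondrial genome (5.782% against 13.31% to 14.42%). These shares are of deposited TPM, and in summed scaled TPM the gaps of HpC1 were smaller. They were 1684 against 2599 to 3358 for junctions and 11160 against 16130 to 21770 for actin, myosin and annexins. The mitochondrial genome summed to 86550 against 89370 to 116700, so that HpC1 hardly stood apart there. All values that stood apart thus belonged to HpC1 or HpC2.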

How the results depend on the processing

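Of the 163 genes named as called, 162 kept their call without HpC1 and HpC2 together (the exception was C1qc), 161 kept it whichever single library was left out (the exceptions were Mki67 and Clec4f), and 155 kept it on TPM as deposited, where none turned sign. The scaling set the balance: on TPM as deposited 7553 genes were called higher and 1519 lower, and beyond 2-fold 785 lower. Beyond 2-fold 2667 were called higher with a pseudocount of 0.1 and 756 with one of 5. Leaving out single libraries gave 3977 to 4582 higher and 3880 to 4516 lower, and beyond 2-fold 1481 to 1769 and 1534 to 1814. With the replicate number as a block, 4161 genes were higher and 4023 lower. A log2 change turned sign in these genes, none of them called in the comparison: on TPM as deposited for Gstp1 (1.08, called), Idi1 (0.63), Ltbp1 (0.64), Sdc4 (0.59) and Slc10a2 (0.73). It turned also for Ltbp1 without HpC1 and HpC2 (0.19), for Gstp1 with median-of-ratios scaling (0.09), with the replicate block (0.25), and, leaving out single libraries, between -0.42 and 0.25 (positive without HpC3, at 0.17, or HpC4), and for Ahr, which ran from -0.02 without HpC3 to 0.23. The depth of the libraries is unknown, so values near 0 carry no detection limit. With 3 H libraries, 2 of them from mice of one age, the spread of H is weakly known.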
